A study of Mus musculus with 4 samples.

Results

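The replication-dependent histone genes encode the proteins around which newly copied DNA is wrapped. They were taken here as every gene name in the 4 deposited tables that begins with Hist1h, Hist2h, Hist3h or Hist4h. The rule uses the name alone and no measured value. It found 67 of 22072 gene names, listed as 75 of 28107 transcript entries: 6 H1, 18 H2A, 18 H2B, 12 H3 and 13 H4 names. Of the 67 names, 60 passed a filter of 1 FPKM for the mean of the libraries. FPKM is the number of fragments per kilobase of transcript, scaled to the mapped fragments of the library. The 7 others are described in their place below.

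The libraries held RNA of molar tooth mesenchyme from mouse embryos of mixed background at embryonic day 14, cut from frozen sections by laser capture. Laser capture takes chosen cells out of a section with a laser. The controls were Msx1+/- by their genotype label, although the series title speaks of wild type, and the mutants were Msx1-/-. Msx1 is a homeobox factor that tooth mesenchyme needs for the tooth germ to develop past its early stages. Each genotype gave 1 library of upper (maxillary) molars and 1 of lower (mandibular) molars, and tissue of 3 pairs of control and mutant samples was pooled before RNA extraction, so there were 4 groups of 1 library. The controls carried 1 mutant allele, the allele itself is not named in the sources used here, and with 1 pool per group no value has a replicate error and no test is used here.

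Msx1 RNA itself was at 170 FPKM in control upper, 184 in control lower, 126 in mutant upper and 85.9 in mutant lower molars, so RNA of the locus was still counted in both mutant libraries. The tissue label was checked against 10 markers of dental mesenchyme, all of which passed the filter. Their summed level was 987 FPKM in control upper, 1040 in control lower, 1040 in mutant upper and 798 in mutant lower molars. Of these markers Runx2 (-2.05) and Twist1 (-1.29) were lower in mutant lower molars by at least 1 on the scale described below, and Runx2 also in upper molars (-1.39). The summed read depth over transcripts was between 264 and 410 megabases per library, with the least in mutant lower molars. In that library 28.6% of the mapped sequence lay in the listed transcripts, against 36.3% to 39.9% in the other libraries. Over the 10536 genes kept, the median difference between mutant and control was -0.39 in lower molars and -0.03 in upper molars. All differences are in log2(FPKM + 1), a scale on which 1 is close to a 2-fold difference except for weakly expressed genes, where it understates the fold. A gene was counted as higher or lower when it differed by at least 1. Because the mutant lower library lay below the others over most genes, counts are also given after the libraries were rescaled by the median of the genes' ratios, which brought the median difference in lower molars to 0.01.

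Chromatin is built on a core particle of H2A, H2B, H3 and H4, and the linker histone H1 binds where the DNA enters and leaves that core. Dividing cells make these proteins in S phase, when DNA is copied, from clustered genes that lack introns and sit in many near-identical copies. Their mRNAs are the main class of animal mRNA that does not end in a poly(A) tail: the stem-loop binding protein SLBP holds a short hairpin after the stop codon, and the mRNA is cut just behind it. Some of the same genes can also be read through to a downstream poly(A) site, mostly in cells that have stopped dividing. In the tables (build mm9), 53 of the 67 names lay on chromosome 13 in the Hist1 cluster, 10 on chromosome 3 in the Hist2 cluster, 3 on chromosome 11 in the Hist3 cluster and 1 on chromosome 6. The rule also took in 2 pseudogene names, Hist2h3c2-ps and Hist3h2bb-ps, and 3 genes known for expression in testis, Hist1h1t, Hist1h2aa and Hist1h2ba.

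The hairpin is the feature that sets these mRNAs apart, so it is shown first. GENCODE M21 transcripts (build GRCm38) were found for 66 names and searched after the stop codon for GGCNCTTNTNAGNGCC, on the transcript's own strand. The motif lay there in 43 names, which are 43 of the 50 names whose transcript ran at least 20 bases past the stop codon. Among all 55341 GENCODE gene names, 0.103% held it anywhere in a transcript. The hairpins below are from genes described later, with the 16 bases of the motif in capitals and 5 bases on either side, written 5′ to 3′ on the gene's strand. The coordinates are those of the capitals in GRCm38.
Hist1h1c (chr13:23739512-23739527, +): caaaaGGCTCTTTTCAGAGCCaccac
Hist1h2bk (chr13:22036300-22036315, +): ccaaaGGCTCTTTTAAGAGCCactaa
Hist1h2bm (chr13:21722506-21722521, +): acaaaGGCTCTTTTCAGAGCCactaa
Hist1h3b (chr13:23752820-23752835, +): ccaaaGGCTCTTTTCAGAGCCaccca
Hist1h4d (chr13:23581950-23581965, +): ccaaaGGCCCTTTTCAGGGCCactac
Hist2h4 (chr3:96262939-96262954, −): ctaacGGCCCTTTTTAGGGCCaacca
Hist2h2ac (chr3:96220418-96220433, −): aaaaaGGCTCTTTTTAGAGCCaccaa

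The hairpin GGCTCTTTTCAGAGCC was the commonest, in 25 names of the H1, H2A, H2B and H3 types. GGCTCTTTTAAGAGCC was in 6 names. The 10 H4 names with a hairpin had other letters: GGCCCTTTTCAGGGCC in 7, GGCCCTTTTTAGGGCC in 2 and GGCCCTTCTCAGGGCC in 1. Hist2h2ac had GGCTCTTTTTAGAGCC, a hairpin that no other name had. Of the 67 names, 34 had a deposited transcript length equal to the coding length, so for them reads over the hairpin were outside the counted transcript. Another 10 had a deposited length of at least 1000 bases.

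Summed over all 67 names, histone RNA was at 4306 FPKM in control upper, 3169 in control lower, 3510 in mutant upper and 1351 in mutant lower molars. The mutant lower library was the low one, with the other libraries 2.35 to 3.19 times above it. Between genotypes the sum was lower in mutant by 1.23 in lower molars, a fold of 2.35, and by 0.29 in upper molars, a fold of 1.23. The 4 libraries thus held 1 low value and 3 that lay within a fold of 1.36. After rescaling, the lower-molar difference of the sum was -0.74 and no longer reached 1, while its direction was the same.

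**Figure D1:**
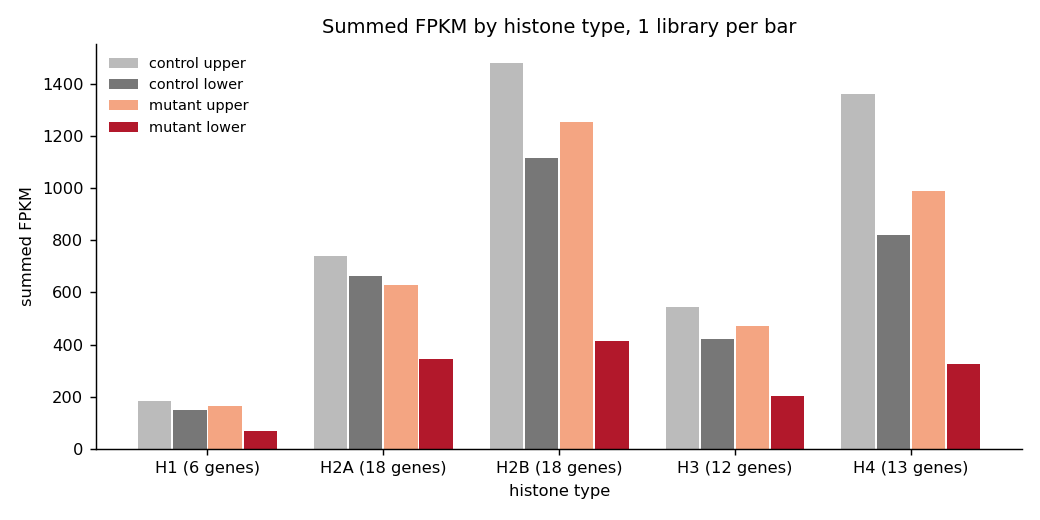
Summed FPKM (y axis) of the H1, H2A, H2B, H3 and H4 gene names (x axis) in each of the 4 libraries, 1 library per bar and so no error bars. The mutant lower library is the lowest bar of every type, for example 414 FPKM of H2B against 1115 to 1479 in the other libraries.

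By single genes, 37 of the 60 that passed the filter (61.7%) were counted as lower in mutant than in control lower molars, against 9.43% of all genes kept. None was counted as higher, against 0.873% of all genes. After rescaling, 19 (31.7%) were counted as lower, against 3.03% of all genes. In upper molars 0 histone genes were counted as lower and 0 as higher, where 3.26% and 1.07% of all genes were. The median difference of the 60 genes was -1.11 in lower molars and -0.18 in upper molars. The mutant lower library was the lowest of the 4 for 57 of the 60 (95%), against 66% of all genes, and it lay at least 1 below each other library for 32 (53.3%), against 1.89% of all genes. No histone gene was counted as lower in both jaws, where 1.59% of all genes were, and none as higher in both, where 0.399% were.

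**Figure D2:**
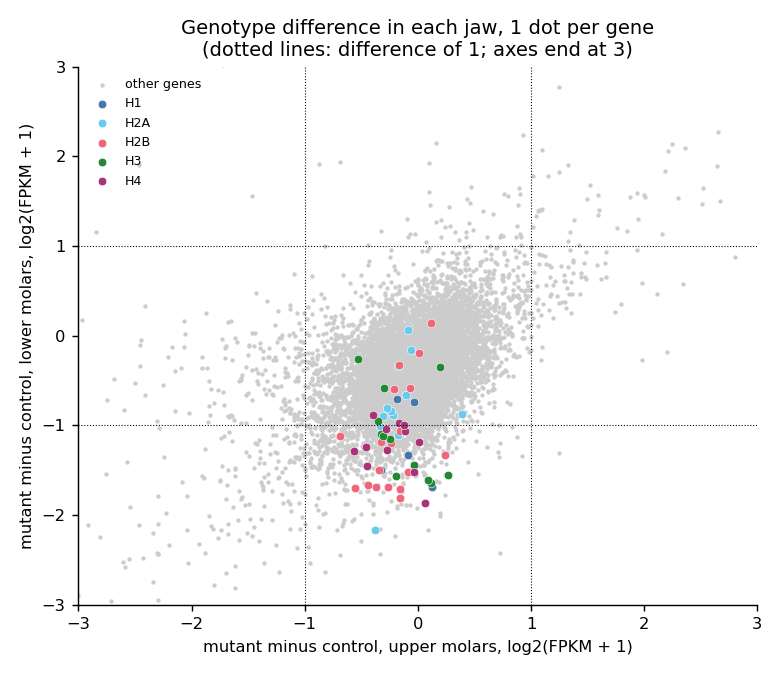
Each dot is a gene, placed by its difference between mutant and control, in log2(FPKM + 1), in upper molars (x axis) and lower molars (y axis), with histone genes colored by type and other genes gray. Dotted lines mark a difference of 1, and histone genes lie between -0.69 and 0.39 across and between -2.16 and 0.14 up.

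All 6 linker histone genes are described. H1 proteins compact the string of core particles, and the H1 sum was 183 FPKM in control upper, 147 in control lower, 164 in mutant upper and 66.4 in mutant lower molars. Hist1h1a was at 22.3, 23.4, 24.5 and 6.61 FPKM, with the controls first, upper then lower molars, and the mutants after them in like order, here and below. Its lower-molar genotype difference was -1.68, its upper-molar difference 0.13, and the mutant lower value stood alone below 3 close ones. Hist1h1e, at 48.2, 33.1, 38.3 and 11.0 FPKM, differed by -1.5 and -0.33, and Hist1h1a and Hist1h1e were the H1 genes still counted after rescaling. Hist1h1c, at 33.0, 25.1, 31.1 and 9.36 FPKM, differed by -1.33 in lower molars and by -0.88 there after rescaling.

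The other H1 genes missed the count. Hist1h1b held 43.0% of H1 RNA on average and was at 71.1, 59.8, 62.4 and 36.2 FPKM, a lower-molar difference of -0.71. Its share of H1 RNA was 54.5% in mutant lower molars and 38.0% to 40.5% in the other libraries. Hist1h1d was at 7.68, 6, 7.47 and 3.18 FPKM, a lower-molar difference of -0.74. Hist1h1t, the linker histone of the testis, was under the filter at 0.329, 0.0693, 0.423 and 0.0499 FPKM.

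H2A and H2B enter the core particle as a pair. H2A RNA was at 738, 664, 630 and 344 FPKM, a lower-molar difference of -0.95, and 4 of its 13 genes past the filter were counted as lower. H2B RNA was at 1479, 1115, 1253 and 414 FPKM, a difference of -1.43, with 13 of 18 counted as lower. After rescaling the counts were 1 H2A and 9 H2B genes, and the differences of the sums were -0.46 and -0.94. The ratio of H2B to H2A RNA was 2, 1.68, 1.99 and 1.2, so H2A made up 25.5% of histone RNA in mutant lower molars against 17.1% to 21% elsewhere.

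Within H2A, Hist1h2ak held the largest mean share (23.7%) and had the lowest difference of the 60 genes. It was at 224, 173, 173 and 38.0 FPKM, with a lower-molar difference of -2.16 and an upper-molar difference of -0.37. Its lower-molar difference was -1.68 after rescaling. Hist2h2ac went another way: it was at 86.4, 64.0, 81.3 and 66.8 FPKM, with differences of 0.06 in lower and -0.09 in upper molars, and its lowest value was in control lower molars. Hist1h2ab, at 66.1, 68.7, 58.3 and 53.9 FPKM, differed by -0.34 and -0.18. Together these 3 highest H2A genes span the range of the type in lower molars, though not in upper molars.

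Several H2A genes had nearly the same value in each library, for example Hist1h2ad at 60.2, 59.9, 51.4 and 32.1 FPKM and Hist1h2ah at 60.6, 57.0, 48.9 and 30.3 FPKM. These copies are near-identical in sequence, and no source used here says how the authors divided reads between them, so their values are uncertain and not independent. Both mutant libraries lay below both control libraries for 11 of the 13 H2A genes and for 18 of the 60 histone genes (30%), against 41.2% of all genes. After rescaling the counts were 7 and 10 (16.7%), against 23.5% of all genes. The 4 H2A names Hist1h2ao, Hist1h2ap, Hist2h2aa1 and Hist2h2aa2 were listed at 0 in every library. Each had 2 entries, and for Hist1h2ap and Hist2h2aa2 both were marked as having too little data in every library. The entries of Hist1h2ao and Hist2h2aa1 were not so marked, but overlap those of the marked names in position. The level of these 4 names is therefore taken as not known. The other 2 histone entries so marked belong to Hist1h4n and Hist2h3c1, whose values rest on their remaining entry. Hist1h2aa, the H2A of the testis, was under the filter, with its highest value 0.141 FPKM in control upper molars.

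Among H2B genes, Hist1h2bm was the highest, at 405, 373, 381 and 130 FPKM, with a lower-molar difference of -1.52 and an upper-molar difference of -0.09. Its mutant lower value lay far below 3 values that were close together. Hist1h2bl, at 283, 184, 226 and 80.7 FPKM, differed by -1.18, and by -0.70 after rescaling. Hist1h2bf, at 124, 102, 112 and 47.9 FPKM, differed by -1.07, and by -0.58 after rescaling. Hist1h2bn, at 128, 84.8, 114 and 23.5 FPKM, differed by -1.81. Control upper molars were the highest library for these genes and for 42 of the 60 (70%), against 27.2% of all genes.

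Hist1h2bk and Hist1h2bj were, with Hist1h2ak, the genes with the lowest mean of the differences in the 2 jaws. Hist1h2bk was at 130, 87.5, 96.0 and 26.9 FPKM, with differences of -1.67 in lower and -0.44 in upper molars. Hist1h2bj was at 98.9, 61.8, 66.8 and 18.3 FPKM, with differences of -1.70 and -0.56. For both, the mutant upper value still lay above the control lower one. Hist1h2ba, the H2B of the testis, had the lowest upper-molar difference of the 60 genes, -0.69, at 24.3, 12.3, 14.7 and 5.13 FPKM. It was the one member of a 6-gene list of testis histones that passed the filter.

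Some H2B genes were near equal between genotypes. Hist2h2be, which is known from olfactory neurons, was at 2.47, 2.41, 2.76 and 2.77 FPKM, with differences of 0.14 in lower and 0.12 in upper molars. It was the single histone gene with both mutant libraries above both controls (9.52% of all genes were), by a margin that is small beside the other differences here. Hist3h2ba was at 9.36, 11.7, 8.25 and 9.14 FPKM, with differences of -0.33 and -0.16. Hist2h2bb, at 6.87, 5.05, 6.93 and 4.3 FPKM, differed by -0.19 in lower molars and 0.01 in upper molars. Hist2h2ac, Hist2h2be and Hist3h2ba were the 3 genes for which the mutant lower library was not the lowest.

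**Figure D3:**
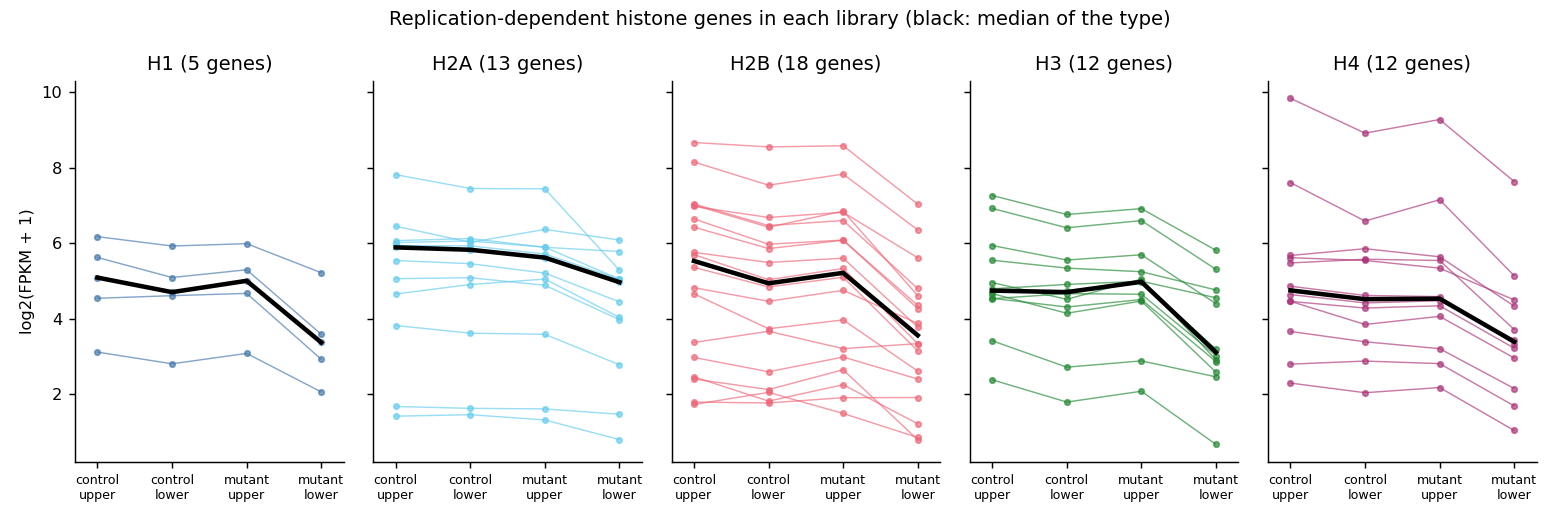
Level of each histone gene past the filter, in log2(FPKM + 1) (y axis), in the 4 libraries (x axis), with 1 panel per type, 1 line per gene and the median of the type in black. Lines join the values of 1 gene and stand for no order of the libraries, and the last point, mutant lower molars, is the lowest for 57 of the 60 genes.

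H3 and H4 form the inner part of the core particle. H3 RNA was at 543, 421, 473 and 201 FPKM, a lower-molar difference of -1.07, and 8 of 12 genes were counted as lower. Hist2h3b, at 152, 107, 120 and 55.2 FPKM, held 26.6% of H3 RNA on average and differed by -0.95, just short of the count. Hist2h3c1, at 120, 83.9, 95.8 and 38.6 FPKM, differed by -1.10, and by -0.62 after rescaling. Hist1h3b, at 60.3, 46.0, 50.7 and 20.1 FPKM, differed by -1.15, and by -0.68 after rescaling. Hist1h3d, at 26.7, 29.0, 30.8 and 22.5 FPKM, differed by -0.35 in lower and 0.20 in upper molars. Hist1h3f, at 9.68, 5.58, 6.39 and 4.51 FPKM, differed by -0.26 and -0.53, and Hist1h3e by -0.58 and -0.30. After rescaling 5 H3 genes were counted, and the sum differed by -0.58.

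H4 RNA was at 1362, 820.5, 989.7 and 325 FPKM, a lower-molar difference of -1.33 and an upper-molar difference of -0.46, with 9 of 12 genes counted as lower in lower molars. Hist1h4d alone held 62.1% of H4 RNA on average. It was at 911, 481, 617 and 197 FPKM, with differences of -1.28 and -0.56, and -0.79 in lower molars after rescaling. Hist2h4, at 193, 95.0, 141 and 34.2 FPKM, differed by -1.45 and -0.45, and by -0.97 in lower molars after rescaling. Hist1h4c, at 50.1, 56.8, 48.9 and 19.2 FPKM, differed by -1.52 and -0.04. In Hist1h4c the 3 high libraries were close, whereas Hist1h4d and Hist2h4 also had a high control upper value. After rescaling 2 H4 genes were counted, and the sum differed by -0.84. Hist1h4m was under the filter, at 0.577, 0.752, 0.273 and 0 FPKM.

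The same libraries, compared between jaws, share their values with the genotype comparisons and are no separate evidence. In control molars histone RNA was higher in upper than in lower molars by 0.44 for the sum, and by 0.73 for H4, the type whose sum differed most. The H4 sum rests largely on Hist1h4d (0.92), which held 62.1% of H4 RNA on average. By single genes the median of H4 was 0.23, below 0.45 for H2B, 0.41 for H3 and 0.31 for H1, and above 0.05 for H2A. Hist2h4 alone was counted as higher, by 1.02 (1 of 60 genes, against 1.48% of all genes). After rescaling Hist1h2ba and Hist1h4d joined it (3 of 60, against 1.72%), and Hist1h2ba was named here after its values were seen. In mutant molars the sum differed by 1.38 and 39 of 60 genes (65%) were counted as higher in upper molars, against 3.22% of all genes. After rescaling these were 1.03 and 24 genes, against 1.29%.

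The H2A and H2B genes of the Hist1 cluster often sit head to head, read away from each other from a common stretch of DNA. Among genes with a RefSeq promoter (described below) there were 9 such pairs. In 7 of them both genes passed the filter, with 164 to 249 bases between their starts. In 6 of the 7 the H2B gene had the lower difference in lower molars. Hist1h2ag and Hist1h2bj, for example, differed by -0.81 and -1.70, and Hist1h2ad and Hist1h2bf by -0.88 and -1.07. In the other of the 7 the order was turned: Hist1h2ak differed by -2.16 and Hist1h2bn by -1.81, the lowest pair of values. Hist1h2ac and Hist1h2bc also lie head to head and passed the filter, but no RefSeq promoter was found for Hist1h2bc. They are outside the count and differed by -0.66 and -0.59, again with the H2A gene lower. Outside the Hist1 cluster, Hist2h2ac and Hist2h2be also lie head to head and differed by 0.06 and 0.14. Hist3h2a and the pseudogene Hist3h2bb-ps lie likewise and differed by -0.16 and -1.19. No RefSeq promoter was found for Hist2h2be or Hist3h2bb-ps, so these pairs are not in the count. The H2A values are those whose copies may share reads.

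**Figure D4:**
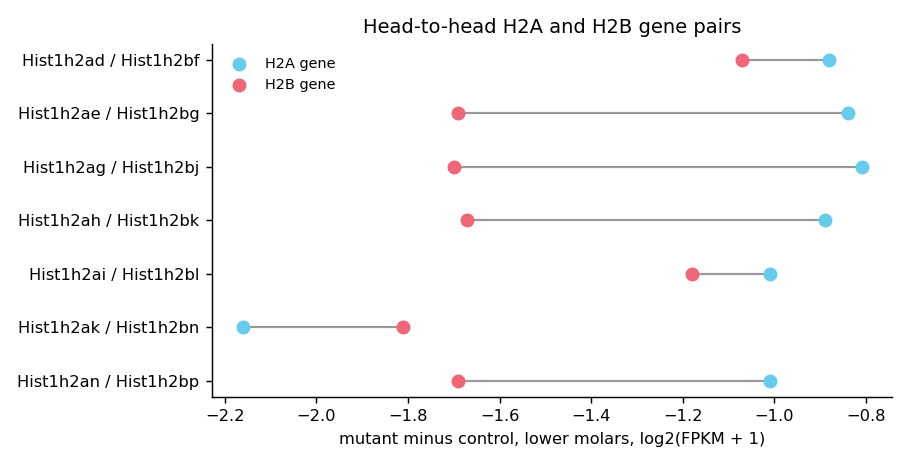
Difference between mutant and control in lower molars, in log2(FPKM + 1) (x axis), for the H2A and H2B genes of 7 head-to-head pairs (y axis), 1 dot per gene. The pairs are those with RefSeq promoters for both genes. Hist1h2ac with Hist1h2bc, Hist2h2ac with Hist2h2be and Hist3h2a with Hist3h2bb-ps are therefore not drawn. The H2B dot lies to the left of the H2A dot in 6 pairs, and Hist1h2ak with Hist1h2bn is the exception among those drawn.

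Promoters are shown for the H2A gene with the lowest difference, for the H2A gene without one and for the H4 gene with the highest level. They run from 250 bases before to 50 after the start, on the gene's strand, from RefSeq (build GRCm38.p6). Capitals mark, on either strand, CCAAT, which NF-Y is known to bind, the TATA box motif TATAAA, and the octamer ATTTGCAT, which Oct-1 is known to bind. In these promoters the marked motifs do not overlap.
Hist1h2ak (chr13:21753863-21754162, −): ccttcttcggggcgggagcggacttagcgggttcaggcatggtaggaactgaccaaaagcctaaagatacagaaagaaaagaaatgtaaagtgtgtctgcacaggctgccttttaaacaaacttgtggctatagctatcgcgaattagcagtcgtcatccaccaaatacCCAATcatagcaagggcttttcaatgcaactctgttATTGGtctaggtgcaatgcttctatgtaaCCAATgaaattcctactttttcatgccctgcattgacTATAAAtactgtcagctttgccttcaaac
Hist2h2ac (chr3:96220831-96221130, −): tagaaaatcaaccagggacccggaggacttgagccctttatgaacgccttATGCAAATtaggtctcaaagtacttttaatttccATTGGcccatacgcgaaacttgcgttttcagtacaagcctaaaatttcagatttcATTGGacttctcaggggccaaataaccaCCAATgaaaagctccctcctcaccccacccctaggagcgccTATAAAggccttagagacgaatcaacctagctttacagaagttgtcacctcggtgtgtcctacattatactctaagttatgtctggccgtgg
Hist1h4d (chr13:23581318-23581617, +): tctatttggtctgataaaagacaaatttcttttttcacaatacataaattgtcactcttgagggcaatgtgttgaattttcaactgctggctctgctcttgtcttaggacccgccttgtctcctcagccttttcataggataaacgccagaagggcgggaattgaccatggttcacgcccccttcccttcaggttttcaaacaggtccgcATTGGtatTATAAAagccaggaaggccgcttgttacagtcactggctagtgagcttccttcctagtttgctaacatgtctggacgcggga

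A RefSeq promoter was found for 61 of the 67 names. CCAAT was in the promoters of 52 (85.2%), against 37.4% of the 32851 promoters in the table. It was in those of every H1, H2A, H2B and H3 name with a promoter and of 3 of the 12 H4 names, Hist1h4d among them. TATAAA was in 35 (57.4%, against 13.6% of all promoters). ATTTGCAT was in 14 (23%, against 1.74%), 7 of them H2A and 7 H2B names. Windows of head-to-head genes can overlap, as those of Hist1h2ah and Hist1h2bk do, so a motif there counts for both names. Hist2h2ac held all 3 motifs, whereas Hist1h2ak and Hist1h4d held CCAAT and TATAAA. Other genes past the filter also held all 3, with lower-molar differences from -1.71 (Hist1h2bb) to -0.34 (Hist1h2ab). A match says only that the letters are in the window.

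Hist2h2ac (mm9 chr3:96024378-96024767) and Hist2h2be (mm9 chr3:96025044-96027661) lie next to each other, with lower-molar differences of 0.06 and 0.14. Hist2h2ab, on the other side of Hist2h2ac (mm9 chr3:96023839-96024231), differed by -0.87, and Hist2h2bb, at the far end of the cluster (mm9 chr3:96073623-96074115), by -0.19. Hist2h3c1 and Hist2h4 between them differed by -1.10 and -1.45, so the differences followed no simple order along the cluster. The median lower-molar difference was -1.19 over the 48 Hist1 genes, -0.91 over the 8 Hist2 genes and -0.33 over the 3 Hist3 genes, beside -0.39 over all genes.

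Histone genes were also grouped by how their annotated transcripts end. The median lower-molar difference was -1.07 over 20 genes whose GENCODE transcript runs at least 100 bases past the hairpin and -1.28 over 17 genes whose transcript ends closer to it. It was -1.02 over 10 genes with AATAAA, the poly(A) signal, in the last 40 bases and -1.15 over 49 genes without it. Over 9 genes on a list of those known to make polyadenylated mRNA as well, it was -0.74, with Hist1h1c (-1.33) and Hist1h2bc (-0.59, at 27.3, 21.1, 25.9 and 13.7 FPKM) the highest in level. Of those 9 genes 3 were counted as lower (33.3%, against 9.43% of all genes and 61.7% of the 60 histone genes). The genes with a deposited length of at least 1000 bases had a median of -0.70 (10 genes), against -1.14 for the shorter ones (50 genes). Several of these longer genes were weakly expressed, with means such as 1.42 FPKM for Hist1h2ac, 2.03 for Hist3h2a and 3.42 for Hist1h2be. At such levels the scale understates the fold, and the list of polyadenylated mRNA holds some of the same genes. What part low level had in these gaps was not tested.

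Short length and base composition were looked at in other genes. The 83 other genes that lay in the interquartile range of the histone genes for both length and GC content had a median lower-molar difference of -0.28. That is above the median of all genes, -0.39, and of the histone genes, -1.11.

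RNAs of other kinds that also lack a poly(A) tail were examined after the histone values were seen. Rmrp, the RNA of RNase MRP, was at 59.6, 66.1, 63.6 and 13.9 FPKM, a lower-molar difference of -2.17. Rpph1, the RNA of RNase P, was at 109, 118, 86.7 and 21.1 FPKM, a difference of -2.43. Terc, the telomerase RNA, was at 5.13, 11.8, 9.13 and 1.39 FPKM, a difference of -2.42. These 3, of 4 on the list past the filter, were low in the mutant lower library as the histone genes were (75%, against 9.43% of all genes). They remained past 1 after rescaling, where 3.03% of all genes were counted as lower. Malat1, a nuclear RNA whose end is protected by a triple helix, was at 229, 176, 191 and 201 FPKM and differed by 0.19. Rprl1, Vaultrc5 and Neat1, the others on the list, were under the filter. What part the ends of RNAs or the low transcript share of that library had in the histone values was not tested.

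Replacement histones are made outside S phase as well, mostly from polyadenylated mRNA. Of 11 that are not in the clusters, 3 were counted as lower in lower molars (27.3%, against 9.43% of all genes) and 0 in upper molars, with medians of -0.65 and 0.10. H2afz, which encodes H2A.Z, was at 389, 392, 309 and 209 FPKM, a lower-molar difference of -0.90. H3f3a, for the replacement histone H3.3, was at 271, 350, 320 and 170 FPKM, a difference of -1.04. H2afx, whose mRNA is known to be made both with a hairpin and with a poly(A) tail, was at 202, 153, 176 and 70.0 FPKM, a difference of -1.12. H1f0 was the third, at -1.11. After rescaling 0 of the 11 were counted and their median was -0.17, against -0.69 for the histone genes of the clusters.

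The genes that make and process histone mRNA were taken as a list of 28 symbols, of which 25 passed the filter. Slbp was at 16.6, 18.4, 15.9 and 9.19 FPKM, with differences of -0.93 in lower and -0.06 in upper molars. Npat, the activator that recruits transcription to the histone clusters, was at 4.3, 4.25, 3.93 and 3.52 FPKM, with differences of -0.22 and -0.11. Of the 25 genes 1 was counted as lower in lower molars (4%, under the 9.43% of all genes), Snrpf (-1.39), a core protein shared with the spliceosome. The highest in level were Snrpg and Snrpe, with differences of -0.32 and -0.71. The list's median was -0.60 in lower molars and -0.08 in upper molars, and after rescaling 0 were counted.

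Among 18 factors tied to histone gene transcription, E2f1 was counted as lower in upper molars (-1.38), and E2f3 (-1.31) and Cdk2 (-1.13) in lower molars (11.1%, near the 9.43% of all genes). The median of the list in lower molars was -0.44. Its highest genes, Gapdh and Ccna2, differed there by -0.24 and -0.28. Of 23 histone chaperones, which carry histones to DNA, 4 were counted as lower in lower molars (17.4%, against 9.43% of all genes): Chaf1b (-1.34), Rbbp7 (-1.34), Hira (-1.10) and Set (-1.06). Npm1 and Nap1l1, the highest in level, differed by -0.40 and -0.97. After rescaling 0 genes of either list were counted in lower molars.

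DNA replication genes are read in the same phase of the cell cycle. Of 32, 4 were counted as lower in lower molars (12.5%, near the 9.43% of all genes) and 0 in upper molars. The list's medians were -0.70 and -0.33, below the -0.39 and -0.03 of all genes. Pcna, the sliding clamp of DNA polymerase, was at 67.3, 81.8, 43.2 and 34.7 FPKM, with differences of -1.21 in lower and -0.63 in upper molars. For Pcna both mutant libraries lay below both controls, as they did for 18 of the 60 histone genes (30%) and 41.2% of all genes. They also did for most other genes of this list, Mcm2 to Mcm7 among them, but not for some, such as Rpa1 and Rfc4. Rrm2 (-1.61), Cdc45 (-1.03) and Dnmt1 (-1) were the other counted genes, and Gins2, the next highest after Pcna, differed by -0.80. After rescaling 1 of the 32 was counted, and the median was -0.25.

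Of 20 genes of mitosis 0 were counted in either jaw. Their median was -0.15 in lower and 0.14 in upper molars, and 0.32 in lower molars after rescaling. Ube2c was at 124, 88.0, 108 and 100 FPKM and Top2a at 41.2, 40.9, 45.6 and 40.1 FPKM, with lower-molar differences of 0.18 and -0.02. Since 9.43% of all genes were counted as lower in lower molars, a count of 0 in a list of 20 is little below that share.

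**Figure D5:**
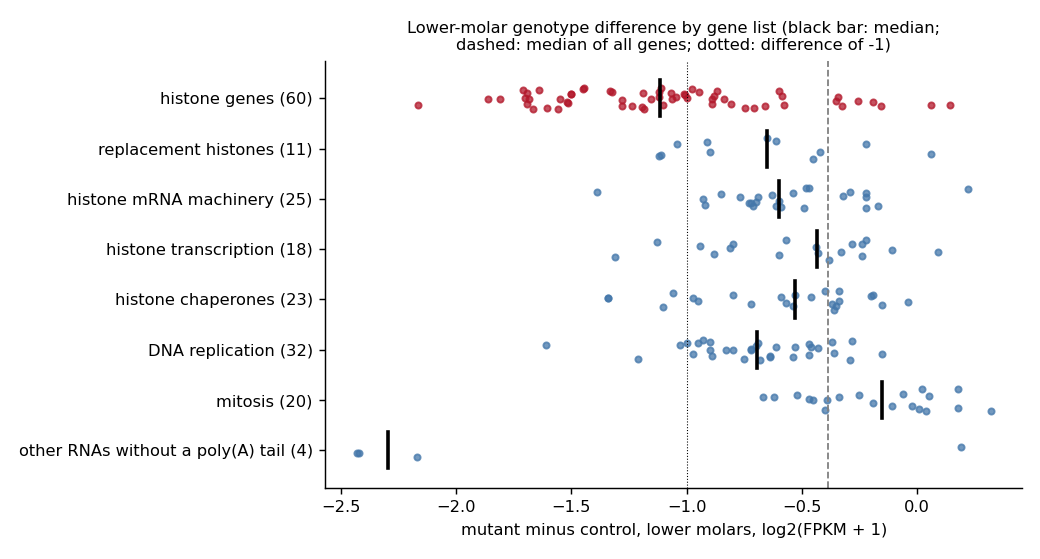
Difference between mutant and control in lower molars, in log2(FPKM + 1) (x axis), for the genes of each list past the filter (y axis), 1 dot per gene, with the list's median as a black bar. The dashed line is the median of all genes, -0.39, and the dotted line a difference of -1; the median is -1.11 for histone genes and -0.15 for mitosis genes.

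Markers of other cells were read in the same libraries. Epithelial markers (6 of 10 past the filter) summed to 27.9, 44.3, 48.5 and 64.3 FPKM, with the highest value in mutant lower molars. Cdh1 was at no more than 0.142 FPKM in any library, and Shh was listed at 0 in both controls. Macrophage markers (7 of 8) summed to 18.9, 24.2, 27.2 and 32.9 FPKM, and cartilage markers (3 of 6) to 6.71, 5.54, 14.1 and 20.9 FPKM with Matn1 listed at 0 in 3 libraries. Erythroid markers (5 of 8) summed to 754, 930, 520 and 674 FPKM, endothelial markers (8 of 8) to 45.9, 51.4, 43.7 and 40.1 FPKM, and bone markers (4 of 6) to 33.4, 32.3, 46.3 and 26.1 FPKM. Markers of muscle (2 of 6) and of neurons and glia (1 of 6) summed to no more than 4.70 FPKM, with Myod1 listed at 0 in 2 libraries. Epithelial, macrophage and cartilage sums were thus highest in the library with the least histone RNA, and their part in the histone values was not tested. Fewer cells in S phase and less histone RNA per cell cannot be told apart in such libraries.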

How the data were processed

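Per the labels' protocols, cDNA for sequencing came from a NuGEN Ovation kit (RNA-Seq v2), which amplifies small amounts of RNA. The submitters' processing notes name the aligners Bowtie (0.12.7) and TopHat (1.4.1) and the build mm9. The tables are laid out as Cufflinks writes them; no source used here names its version. Per the file headers they hold an FPKM value, a coverage signal and a status per transcript; the deposited coverage was FPKM times a constant of 0.812 to 1.09 in each library and served only for depth.

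FPKM was summed per gene name. Names with a failed estimate (66, none a histone name) or with no transcript of at least 200 bases (725, a rule chosen after the tables were opened) were left out, and genes averaging under 1 FPKM across the 4 libraries were dropped, which left 10536 genes. Start positions had 1 added. Differences are in log2(FPKM + 1). With 1 library per group no main result has a test. Calculations were made with pandas 2.3.3 on Python 3.11.15 and were tested on simulated data. An additive limma 3.58.1 fit (genotype and jaw, 1 residual degree of freedom) was an alternative. No pool was repeated, so the residual of a gene is how far its genotype difference varied between jaws. The p-values of that fit therefore measure no spread between repeated pools.

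Genes were named by a rule: the 3 highest of each type and every H1 gene, the 3 with the lowest and the 3 with the highest mean genotype difference, genes counted in both jaws or with the largest jaw differences, and the 2 highest of each list plus Slbp, Npat and Pcna. Genes outside it were named to show counts or pairs, after their values were seen. The members and lists were chosen with earlier results of these data known.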

Additional observations from a re-analysis of the deposited data

How the results depend on the processing

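No analysis paired by replicate was possible because each group has 1 library, which leaves no replicate numbers to block on. No library could be left out of a group for the same reason. The limma fit below has jaw as a term in place of a replicate block. Of the results that answer a comparison, 323 values under alternatives kept their direction and their side of a difference of 1 (counts within 1.5 times), 33 counts moved, 29 values fell short of 1 and 1 came to pass it; none was reversed. The single-gene differences kept both in 267 cases and fell short of 1 in 21, of which 7 came under each rescaling. The summed histone difference in lower molars was between -1.30 and -0.71 and that in upper molars between -0.30 and -0.14. Rescaling by construction raises every value of the mutant lower library; for the other settings the cause was not tested.

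Rescaling by the median of ratios, the upper quartile and the total gave, in that order, 19, 16 and 18 histone genes counted as lower in lower molars (37 as deposited) and medians of -0.69, -0.66 and -0.68. The sums in lower molars were -0.74, -0.71 and -0.74 for all types, -0.65, -0.62 and -0.65 for H1, -0.94, -0.91 and -0.93 for H2B, -0.58, -0.55 and -0.57 for H3, and -0.84, -0.81 and -0.84 for H4. Between mutant jaws the histone median was 0.86, 0.87 and 0.92 and the H3 sum 0.88, 0.89 and 0.95. The first 2 rescalings gave 24 and 24 histone genes there (39 as deposited) and an H1 sum of 0.94 and 0.96. Between control jaws the median of ratios and the total each gave 3 histone genes (1 as deposited). All genes counted in lower molars were 568, 574 and 561 (1086 as deposited, 92 higher and 994 lower; after rescaling 249, 273 and 249 higher, and 319, 301 and 312 lower), and between mutant jaws 238 and 244 under the first 2 (384 as deposited, 339 higher and 45 lower; 136 higher and 102 lower under the first).

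A pseudocount of 5 gave histone medians of -0.90 in lower molars and 0.85 between mutant jaws, and 0 histone genes between control jaws. The mean of log2 values over members was -0.99 in lower molars. H2A summed over the Hist1 cluster alone was -1.13, past 1. A difference of at least 0.58 counted 1 histone gene, Hist1h2ba, in upper molars and in both jaws (0 at 1). The limma fit called 1 histone gene, Hist1h2ak, at an adjusted p of 0.0233, and 584 of all genes. In that fit 25 of the 60 histone genes had an unadjusted p under 0.05, where 1654 of all 10536 genes had.

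All genes counted were 742, 1885, 321, 879 and 367 with a pseudocount of 0.1 in upper molars, lower molars, control jaws, mutant jaws and both jaws (456, 1086, 179, 384 and 210 as reported). With a pseudocount of 5 they were 180, 349, 68, 100 and 80. A mean of at least 5 FPKM gave 265 in upper molars, 101 between control jaws and 130 in both jaws. A difference of at least 0.58 gave 1410 in upper molars, 3697 in lower molars and 750 in both jaws.

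FPKM without counts gives no counting interval, so differences of single genes near 1 FPKM are uncertain by an unknown amount. The mutant lower library had the least summed depth over transcripts, and genotype, pool and library cannot be told apart. The constant of coverage over FPKM was lowest in control lower molars (0.812, against 0.924 in mutant lower molars).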
